A study of Rattus norvegicus with 11 samples.

Results

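The Fc gamma receptors are the cell surface proteins through which leukocytes bind the constant part of IgG, together with Fcgrt, the transporter that carries IgG through cells. Fcgr1a, Fcgr2a, Fcgr2b, Fcgr3a and Fcgrt were looked up by their gene name in a table of 32623 rat genes, and 4 of the 5 had a row. Fcgr2a was not analysed here under that name. A further 2 genes, LOC100911825 and LOC498276, are described in the table as Fc gamma receptors and are given beside the members. The levels were read in peripheral white blood cells (WBCs) of male Wistar rats, 7 weeks old at the start of the study. Collagen-induced arthritis (CIA) had been raised in 4 rats with type II collagen in incomplete Freund's adjuvant and a boost on day 7, and each of these rats gave a Nampt++ sample on about day 8 and a Nampt+ sample on about day 14. The status was set by the authors from their own PCR of Nampt, the gene for the rate-limiting enzyme of NAD salvage, and it cannot be told apart from the day of sampling. The normal healthy controls were 3 rats without arthritis, so the groups held 4, 4 and 3 samples.

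Activating Fc gamma receptors signal through an immunoreceptor tyrosine-based activation motif, which for Fcgr1a and Fcgr3a lies in a partner, the common gamma chain Fcer1g. Src family kinases such as Lyn phosphorylate this motif, and the kinase Syk then docks on it and starts phagocytosis, degranulation and cytokine release. Fcgr2b is the inhibitory receptor: its own motif recruits the phosphatase SHIP1 (Inpp5d), which opposes that signal. Fcgrt, with its light chain beta-2 microglobulin (B2m), binds IgG at acid pH and protects it from breakdown. In CIA, antibodies to collagen form immune complexes in the joint that engage these receptors.

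Total counts per sample were 65340027 to 85819418. Between 6.43% and 39.8% of the counts fell on 10 haemoglobin genes although red cells had been lysed, and this share overlapped between the groups. The libraries carried the markers of leukocytes. Neutrophil markers (9 of 9 genes found) summed to 2079 to 40243 FPKM over the 11 samples, and FPKM is the number of fragments scaled by the length of the gene and by the total of the sample. Monocyte markers (8 of 9 found) summed to 4192 to 13734 FPKM, B cell markers (7 of 8) to 146 to 696 FPKM, T cell markers (7 of 7) to 307 to 1115 FPKM and NK cell markers (7 of 7) to 69.6 to 560 FPKM. Few genes carried the 2 largest sums. Lyz2 gave 3978 of the 4192 FPKM of monocyte markers in control 3, the lowest sample. S100a8 and S100a9 gave 12479 and 25724 of the 40243 FPKM of neutrophil markers in the Nampt++ sample of rat 1. One of the deposited protocols names retina as the tissue, and the 6 retina markers summed to 0.0547 to 1.93 FPKM. Nampt itself overlapped between the 2 groups named after it. For rats 1 to 4 it stood at 46.5, 10.1, 36.1 and 30.6 FPKM at Nampt++ status and at 11.4, 14.3, 27.5 and 36.9 FPKM at Nampt+ status, lower at Nampt+ status in rats 1 and 3 and higher in rats 2 and 4. It was 20.3, 32.9 and 13.5 FPKM in the controls.

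Positions are those of the table, whose genome build is not given in the sources used here. Fcgr1a (ENSRNOG00000021199) lies alone on chromosome 2, from 198430530 to 198458041 on the minus strand. Fcgrt (ENSRNOG00000020583) lies on chromosome 1, from 101086877 to 101095594 on the minus strand. The other receptor genes share chromosome 13. Fcgr2b (ENSRNOG00000046452) is drawn from 89327794 to 89433815 on the minus strand, and the whole of Fcgr3a (ENSRNOG00000024382), from 89385859 to 89396051 on the plus strand, falls inside it. LOC498276 (ENSRNOG00000049422), described as Fc gamma receptor II beta, runs from 91168973 to 91198036 and lies inside LOC100911825 (ENSRNOG00000046663), described as a low affinity receptor III-like gene, which runs from 91146876 to 91228935 on the same strand. The smaller gene takes up 35.4% of the larger. How reads shared by these overlapping or similar genes were counted is not stated, nor whether strand was used, so the values of Fcgr2b, Fcgr3a and the 2 LOC genes are uncertain to that extent. In the RefSeq annotation of GRCr8, the order along chromosome 13 is Fcgr2b, Fcgr3a, Fcgr2a and Fcgr2al1. Fcgr3a is also an older name of the Fcgr2a of that annotation.

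The receptors differed in level by over an order of magnitude. On the FPKM scale, which is per length, Fcer1g was above LOC100911825 in 11 of 11 samples, by 4.28 to 9.13 times, and LOC100911825 was above Fcgr1a in 11 of 11, by 1.08 to 1.70 times. Fcgr1a and LOC498276 could not be ordered, with Fcgr1a higher in 6 of 11 samples. Both stood above Fcgr2b, LOC498276 by 3.02 to 5.24 times in 11 of 11 samples. Fcgr2b and Fcgr3a could not be ordered either, since Fcgr2b was higher in 5 of 11. Fcgrt was lowest, under Fcgr3a in 10 of 11 samples. Means over the 11 samples were 135 ± 66.0 FPKM for LOC100911825, 94.9 ± 56.4 for Fcgr1a, 87.3 ± 44.9 for LOC498276, 22.8 ± 11.7 for Fcgr2b, 21.4 ± 12.4 for Fcgr3a and 5.40 ± 1.75 for Fcgrt (SD, n = 11).

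Fcgr1a, the activating receptor with high affinity for IgG, had a wide spread inside each group. It stood at 66.7, 119 and 31.8 FPKM in controls 1 to 3, at 235, 41.8, 119 and 98.5 FPKM at Nampt++ status in rats 1 to 4, and at 45.9, 99.6, 69.6 and 118 FPKM at Nampt+ status in the same rats. The highest sample, Nampt++ of rat 1, was 7.37 times the lowest, control 3, and the 3 groups overlapped. The group means were 72.7 ± 44.1 FPKM (SD, n = 3) in controls, 123 ± 80.9 (SD, n = 4) at Nampt++ and 83.2 ± 31.7 (SD, n = 4) at Nampt+ status. The counts behind these values were 4088 to 27623 reads per sample, so counting error was small beside the differences between rats.

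The 2 LOC genes had a similar order of samples. LOC100911825 stood at 97.6, 182 and 50.6 FPKM in controls, at 252, 67.2, 201 and 155 FPKM in Nampt++ samples and at 66.9, 159, 81.8 and 175 FPKM in Nampt+ samples. LOC498276 stood at 49.7, 114 and 32.5 FPKM in controls, at 164, 40.5, 136 and 103 FPKM in Nampt++ samples and at 43.0, 105, 54.3 and 119 FPKM in Nampt+ samples. For both genes, rat 1 at Nampt++ status was highest and control 3 lowest. Their ratio was 1.48 to 1.96 in the 11 samples, a range of 1.33-fold, and the smaller gene lies wholly inside the larger.

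Fcgr3a, an activating receptor whose other names in the RefSeq annotation are CD16-2 and Fcgr4, had another pattern over the samples. It stood at 31.9, 14.1 and 14.7 FPKM in controls, at 3.63, 28.3, 18.01 and 33.4 FPKM in Nampt++ samples and at 44.2, 4.74, 24.5 and 17.6 FPKM in Nampt+ samples. Rat 1 supplied both extremes, with the lowest value at Nampt++ status (381 reads) and the highest at Nampt+ status (4275 reads), 12.2-fold apart, the widest range of the 4 members. The group means differed little beside this spread, at 20.3 ± 10.1 FPKM (SD, n = 3) in controls, 20.8 ± 13.1 (SD, n = 4) at Nampt++ and 22.7 ± 16.5 (SD, n = 4) at Nampt+ status. Its promoter is shown because Fcgr3a was the receptor set apart from the others. The 250 bases before its start are given from RefSeq GRCr8, chr13:85782386-85782635 on the plus strand, written 5′ to 3′, and capitals mark the motif ACTTCCTC.
Fcgr3a promoter: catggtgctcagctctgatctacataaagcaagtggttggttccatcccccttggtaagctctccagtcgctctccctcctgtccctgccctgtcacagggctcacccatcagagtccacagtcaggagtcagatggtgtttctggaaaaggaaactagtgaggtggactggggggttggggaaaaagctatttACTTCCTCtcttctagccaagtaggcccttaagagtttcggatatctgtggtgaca
The motif is GAGGAAGT on the opposite strand, a sequence of the kind bound by ETS factors such as PU.1 of myeloid cells, and its first base lies 56 bases before the start. It was chosen after the sequence was seen, and 683 of 33469 rat promoters of the same length (2.04%), read on both strands, hold it. The same stretch before Fcgrt and before the 2 start sites of Fcgr2a does not hold these letters. Of 7 receptor genes looked up, 3 had a promoter entry, and Fcgr1a and Fcgr2b had none.

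Fcgr2b, the inhibitory receptor, resembled Fcgr1a and not Fcgr3a in its order of samples. It stood at 14.2, 21.8 and 10.8 FPKM in controls, at 45.2, 11.1, 30.7 and 29.6 FPKM in Nampt++ samples and at 11.7, 21.2, 16.9 and 38.0 FPKM in Nampt+ samples. Of the Nampt++ samples, those of rats 1, 3 and 4 were above the highest control and that of rat 2 lay between the 2 lowest controls, so the groups overlapped. The means were 15.6 ± 5.63 FPKM (SD, n = 3) in controls, 29.1 ± 13.96 (SD, n = 4) at Nampt++ and 21.96 ± 11.4 (SD, n = 4) at Nampt+ status, and the highest sample was 4.199 times the lowest.

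Fcgrt had the lowest level and the narrowest range. It stood at 6.67, 2.09 and 8.62 FPKM in controls, at 5.52, 6.03, 4.64 and 4.08 FPKM in Nampt++ samples and at 6.44, 3.57, 6.12 and 5.56 FPKM in Nampt+ samples. Both extremes were controls, 4.12-fold apart, and the CIA samples lay between them. Its light chain B2m was more abundant by orders of magnitude, at 2974 ± 305 FPKM (SD, n = 3) in controls, 3582 ± 576 (SD, n = 4) at Nampt++ and 3022 ± 684 (SD, n = 4) at Nampt+ status.

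**Figure D1:**
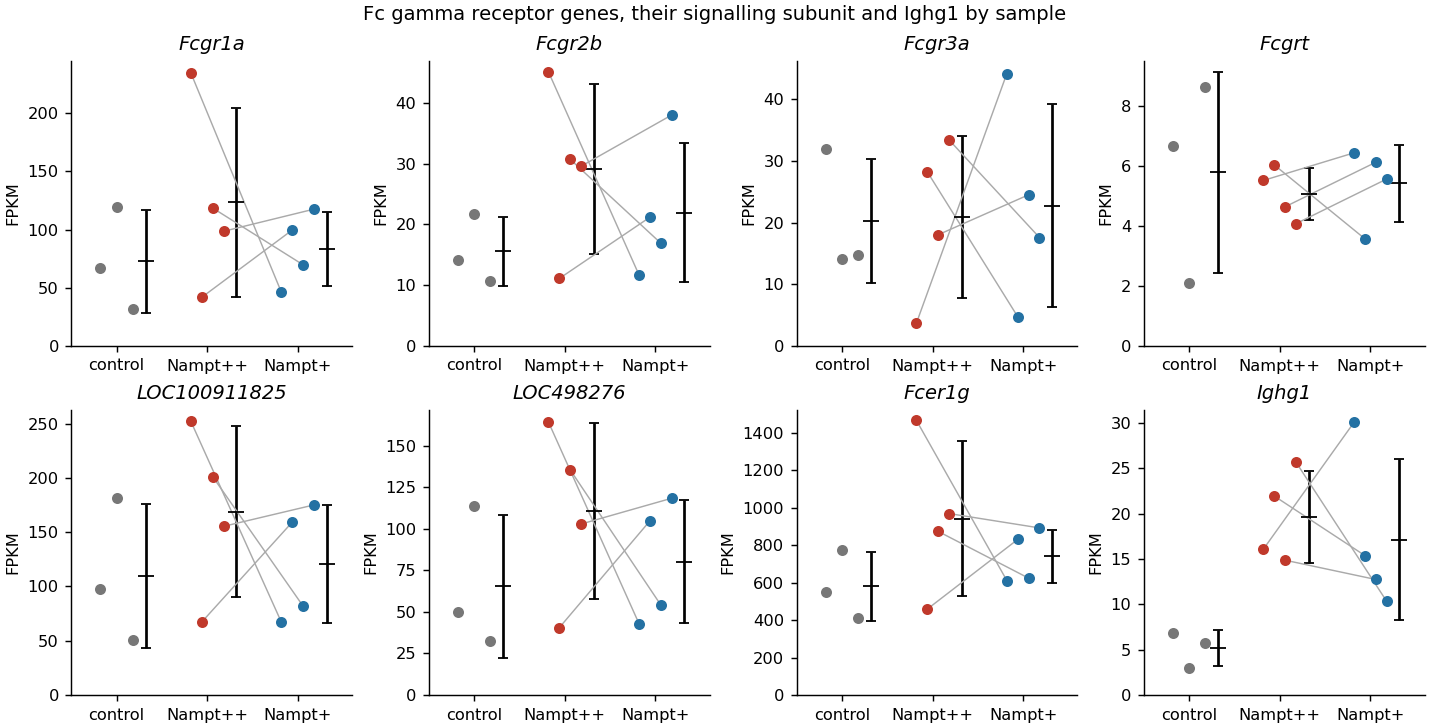
Level in FPKM (linear axis from 0) of the 4 members, the 2 LOC genes, Fcer1g and Ighg1 in each sample, by group; grey lines link the 2 samples of a rat, and the black mark and bar beside each group are its mean and SD. Fcgr1a, Fcgr2b and the LOC genes were highest in the Nampt++ sample of rat 1, where Fcgr3a was lowest at 3.63 FPKM, and for Ighg1 the CIA samples lay above the 3 controls.

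Comparisons between groups addressed whether the receptors differ between the 2 Nampt statuses of the same rats. They also set CIA rats against healthy rats. By the paper, Nampt overexpression in these rats mostly came before arthritis set in, so Nampt++ samples need not come from rats with visible arthritis. With the thresholds of the study, calling a gene took a mean FPKM in one group of more than 2 times or less than 0.5 times that in the other, together with an unadjusted p under 0.05 in edgeR's quasi-likelihood test. No member was called between Nampt+ and Nampt++ samples, where 0.642% of the 11219 genes tested were called, and none between Nampt++ samples and controls (0.686% of 11219) or Nampt+ samples and controls (0.497% of 11269). All 4 members with a row passed the filter of a mean of at least 1 FPKM in each comparison. At an unadjusted p under 0.05, 0 of the 4 passed with edgeR, and DESeq2 and limma also called 0 in each comparison. Nor did the groups separate for any of the 4 members, against 0.41%, 1.1% and 0.444% of genes whose groups did not overlap in the same order of comparisons. Over all genes tested, 0 had an adjusted p under 0.05 in any of the comparisons.

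The inhibitory receptor had the highest ratio to controls. The mean FPKM of Fcgr2b at Nampt++ status was 1.87 times that of controls (log2 difference 0.72 ± 0.50 SE, adjusted p = 1.00 in edgeR), and 1.41 times at Nampt+ status (0.48 ± 0.54 SE). For Fcgr1a the ratios were 1.70 (0.52 ± 0.67 SE, adjusted p = 1.00 in edgeR) and 1.14 (0.19 ± 0.66 SE). For Fcgr3a they were 1.03 and 1.12, and for Fcgrt 0.875 and 0.936. Between Nampt+ and Nampt++ samples of the rats the ratios were 0.675 for Fcgr1a, 0.754 for Fcgr2b, 1.09 for Fcgr3a and 1.07 for Fcgrt. Without the Nampt++ sample of rat 1, the log2 differences of Fcgr1a and Fcgr2b between the statuses were 0.15 and 0.03 in place of -0.32 and -0.23. The comparisons with controls share the 3 control samples, and 1 of these weighed on the result. Without control 2, which had the highest Fcgr2b and Fcgr1a of the controls, Fcgr2b passed the thresholds at Nampt++ status (log2 difference 1.29), as did LOC498276 (1.496), and 462 genes were called in place of 77.

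The intervals show what could not be seen with these numbers of rats. On the log2(FPKM + 1) scale, limma's 95% interval of the difference of Fcgr2b between Nampt++ samples and controls ran from -0.13 to 1.67, and that of Fcgr1a from -0.42 to 1.82. For Fcgr3a it ran from -1.42 to 1.01, around a difference of -0.20, whose sign is opposite to that of its ratio of means. Between Nampt+ and Nampt++ samples the intervals ran from -1.33 to 0.53 for Fcgr1a, from -1.24 to 0.51 for Fcgr2b, from -1.15 to 1.38 for Fcgr3a and from -0.55 to 0.69 for Fcgrt. Against controls the intervals of Fcgrt were wider, from -0.83 to 0.78 at Nampt++ and from -0.81 to 0.91 at Nampt+ status.

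**Figure D2:**
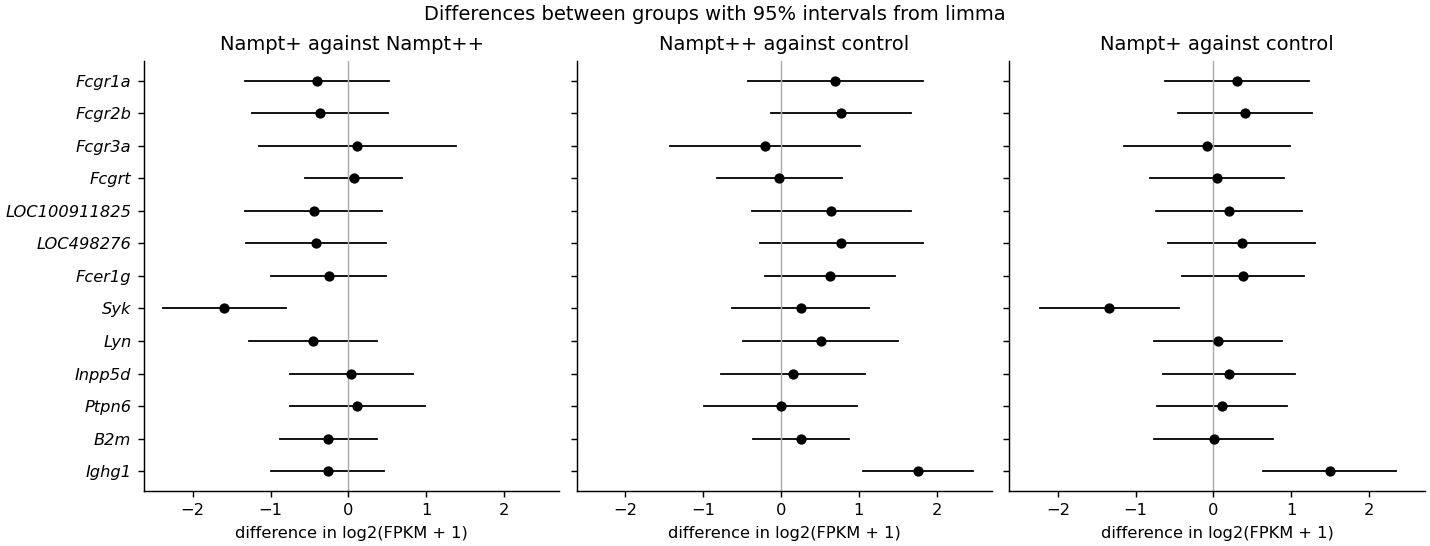
Difference between groups in log2(FPKM + 1), as limma's estimate (point) with its 95% interval (line), for the receptors and their signalling partners in the 3 comparisons; the vertical line marks no difference. The intervals of the 4 members cross 0 in each panel, that of Syk lies below 0 in the comparisons of Nampt+ samples, and that of Ighg1 above 0 in both comparisons with controls.

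Within rats, as paired by the labels, the differences of Fcgr1a and Fcgr2b had the same sign and that of Fcgr3a the other. From Nampt++ to Nampt+ status, log2(FPKM + 1) of Fcgr1a differed by -2.33, 1.24, -0.76 and 0.25 in rats 1 to 4. That of Fcgr2b differed by -1.86, 0.87, -0.82 and 0.35, with the same sign as Fcgr1a in 4 of 4 rats. The LOC genes also had lower values in rats 1 and 3 and higher ones in rats 2 and 4. Fcgr3a differed by 3.29, -2.35, 0.42 and -0.89, with the opposite sign in 4 of 4 rats. The neutrophil markers had the same signs as Fcgr1a, with sums of 40243, 2889, 12693 and 9113 FPKM at Nampt++ and 3671, 15473, 5078 and 13960 FPKM at Nampt+ status. In blood RNA, fewer cells of a type and less RNA per cell cannot be told apart.

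The balance of activating against inhibitory receptor was compared as a ratio within each sample, with Fcgr2b taken as the inhibitory receptor. A ratio of FPKMs does not depend on the scaling of libraries. The tested values, with 1 added to each FPKM, do so to some extent, most where FPKM is low. Fcgr1a to Fcgr2b varied less than either gene. The ratio of their FPKMs was 4.70, 5.49 and 2.96 in controls, 5.19, 3.76, 3.86 and 3.33 at Nampt++ and 3.92, 4.70, 4.11 and 3.09 at Nampt+ status, a range of 1.86-fold where Fcgr1a alone ranged 7.37-fold. The group means were 4.38 ± 1.296 (SD, n = 3), 4.03 ± 0.806 (SD, n = 4) and 3.96 ± 0.666 (SD, n = 4). Fcgr3a to Fcgr2b varied more than either gene. It was 2.25, 0.650 and 1.37 in controls, 0.0804, 2.55, 0.586 and 1.13 at Nampt++ and 3.77, 0.224, 1.45 and 0.462 at Nampt+ status, a range of 46.9-fold with both ends in rat 1. The sum of Fcgr1a and Fcgr3a over Fcgr2b lay between 3.55 and 7.69. This sum leaves out LOC100911825, and LOC498276, described as Fc gamma receptor II beta, is not in these ratios. Over LOC498276 in place of Fcgr2b, Fcgr1a lay between 0.874 and 1.43 and Fcgr3a between 0.0221 and 1.03. The size of the ratio thus depends on the gene taken as inhibitory.

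Neither ratio differed between groups beyond the spread of the samples. As log2(FPKM + 1) of the activating receptor minus that of Fcgr2b, Fcgr1a to Fcgr2b differed by -0.03 between Nampt+ and Nampt++ samples, by -0.07 between Nampt++ samples and controls and by -0.10 between Nampt+ samples and controls. The 2-sided exact permutation p values were 0.857, 0.8286 and 0.743. For Fcgr3a to Fcgr2b the differences were 0.48, -0.97 and -0.49, with exact permutation p values of 0.686, 0.543 and 0.686. Adjusted over these 6 tests by Benjamini-Hochberg, each exact permutation p was 0.857, and the smallest p the design allows is 0.0286. These tests exchange samples freely and ignore that the Nampt+ and Nampt++ samples came from the same rats. With signs exchanged within the 4 rats, the exact permutation p between statuses was 0.75 for each ratio, and 0.125 is the smallest that 4 rats allow. No pair of groups was free of overlap.

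**Figure D3:**
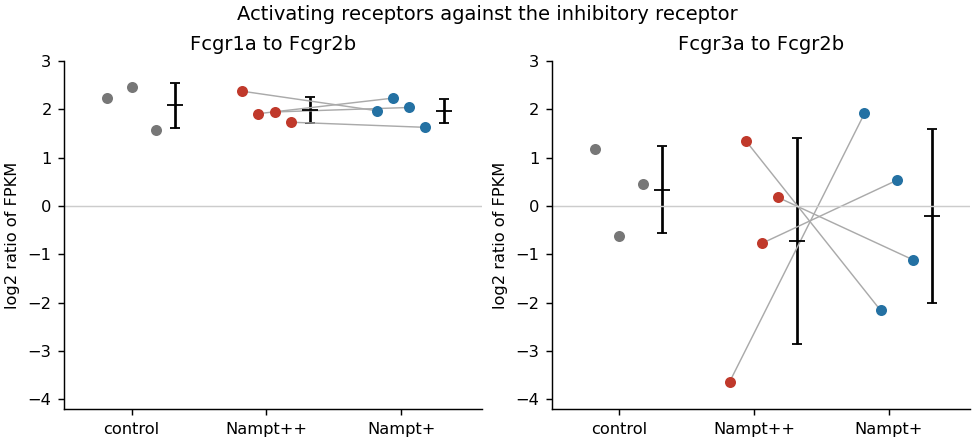
Log2 ratio of FPKMs of Fcgr1a (left) and Fcgr3a (right) to Fcgr2b in each sample, by group; grey lines link the 2 samples of a rat, the black mark and bar are mean and SD, and the horizontal line marks equal FPKMs. The ratio of Fcgr1a stays in a band of 1.86-fold, whereas that of Fcgr3a spans 46.9-fold and crosses over between the 2 samples of the rats.

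The receptors sorted with marker lists of different blood cells. Over the 11 samples, log2(FPKM + 1) of Fcgr1a correlated with the mean of the neutrophil markers at r = 0.99, Fcgr2b at 0.90, LOC100911825 at 0.96, LOC498276 at 0.95 and Fcer1g at 0.93. Fcgr3a had r = -0.65 with that list. These coefficients are descriptions without a test, since 8 of the 11 samples are 4 rats sampled at both statuses and the genes of a library share its composition. With each animal taken once, r for Fcgr1a was 0.99 over the 7 samples of controls and Nampt++ status and 0.98 over the 7 of controls and Nampt+ status, and without the 2 samples farthest from the median of the list it was 0.97. With the monocyte markers r was 0.19 for Fcgr1a, 0.35 for Fcgr2b and 0.41 for Fcgr3a. With the erythroid markers r was -0.62 for Fcgr2b and -0.44 for Fcgr1a, and with haemoglobin reads left out of the totals r with the neutrophil markers was 0.99 for Fcgr1a and 0.92 for Fcgr2b.

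Fcgr3a was highest in r with the NK cell markers, at 0.83. Without control 1 and the Nampt+ sample of rat 2, the 2 samples farthest from the median of the list, r was 0.84, and with each animal taken once it was 0.80 over controls and Nampt++ status and 0.83 over controls and Nampt+ status. The lowest sums of these markers, 69.6 FPKM in the Nampt++ sample of rat 1 and 71.9 FPKM in the Nampt+ sample of rat 2, were in the 2 samples with the lowest Fcgr3a, and without these, left out for their place at the lower end, r was 0.38 over the other 9. Fcgrt followed the B cell markers at r = 0.91, and at 0.92 without controls 2 and 3, the 2 samples farthest from the median of the list. With the T cell markers r was 0.78 for Fcgrt and 0.62 for Fcgr3a, so neither went with 1 lymphocyte list alone. The summed B cell markers were lowest in control 2 (146 FPKM) and highest in control 3 (696 FPKM), which were also the extremes of Fcgrt. The part of these marker levels in the receptor values was not tested.

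**Figure D4:**
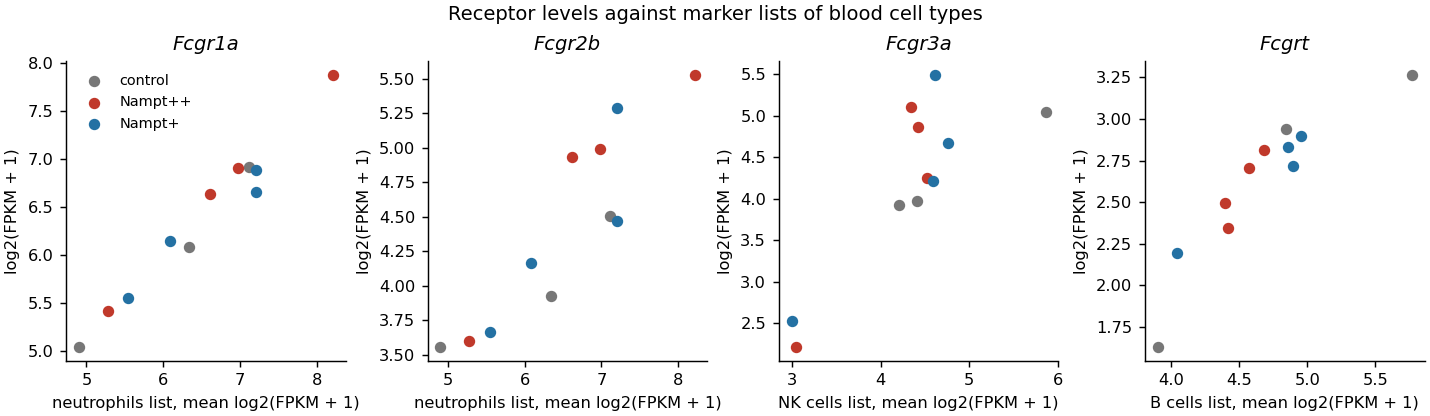
Level of Fcgr1a and Fcgr2b against the neutrophil markers, of Fcgr3a against the NK cell markers and of Fcgrt against the B cell markers, both axes in log2(FPKM + 1), the marker axis as the mean over the list; each point is 1 sample, coloured by group. Fcgr1a lies close to a line (r = 0.99), and Fcgr3a is more scattered (r = 0.83), with 2 samples apart at the lower left.

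Among 4930 genes with a mean of at least 10 FPKM, the genes whose log2(FPKM + 1) was most like that of each member over the 11 samples were different for each member. For Fcgr1a they were Zyx, the focal adhesion protein zyxin (r = 0.995), Gk, glycerol kinase (0.99), and Gng10, a G protein gamma subunit (0.99). Fcgr2b was most like Hopx, a homeodomain protein (0.99), Grn, the precursor of granulins (0.98), and Anpep, aminopeptidase N (0.97). The genes most like Fcgr3a were Adgre1, the macrophage antigen F4/80 (0.90), Gzmm, a granzyme (0.90), and Nkg7, a granule protein of cytotoxic cells (0.89). Fcgrt was most like Fcrla, an Fc receptor-like protein of B cells (0.95), Ptp4a3, a phosphatase (0.94), and Cd40lg, the ligand of CD40 (0.93). The LOC genes were most like each other (0.99).

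In the activating pathway behind the receptors, Syk passed the thresholds for a call. In rats 1 to 4 it stood at 19.6, 39.7, 50.8 and 49.4 FPKM at Nampt++ status and at 10.4, 6.38, 15.0 and 18.6 FPKM at Nampt+ status, so that it was lower in 4 of 4 rats and the groups did not overlap. The log2 difference was -1.67 ± 0.33 SE (adjusted p = 1.00 over all genes in edgeR), and the call rests on the unadjusted p. In controls it was 43.8, 41.5 and 16.6 FPKM, and Nampt+ samples were lower than these too, by a log2 difference of -1.58 ± 0.43 SE (adjusted p = 1.00 in edgeR), although control 3 lay among them. Syk is one of the genes that the study picked out from these libraries. The study measured it again, written as Syk1, in another batch of CIA rats split by Nampt level on a single later day. It reports that the gene varied there in a similar way between the subsets. Of 28 genes of activating signalling, 28 were tested and Syk was called in these 2 comparisons, as it was with DESeq2 and limma. Between Nampt++ samples and controls 0 of the 28 were called, with 0 at an edgeR p under 0.05 and 0 called with DESeq2 or limma. The shares called over all genes tested were 0.642% between statuses, 0.686% for Nampt++ samples against controls and 0.497% for Nampt+ samples against controls.

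The common gamma chain Fcer1g was not called. It stood at 549, 777 and 413 FPKM in controls, at 1468, 458, 874 and 969 FPKM in Nampt++ samples and at 611, 831, 624 and 893 FPKM in Nampt+ samples, highest in rat 1 at Nampt++ status as Fcgr1a was. Its ratio of means to controls was 1.63 at Nampt++ and 1.28 at Nampt+ status. The Src family kinase Lyn had means of 64.6 ± 32.7 FPKM (SD, n = 3) in controls, 97.1 ± 47.3 (SD, n = 4) at Nampt++ and 63.1 ± 11.3 (SD, n = 4) at Nampt+ status. Its relative Fgr had a log2 difference between Nampt++ samples and controls of 0.77, which did not pass the test. Over the 28 genes the median log2 difference was -0.10 between Nampt+ and Nampt++ samples, 0.15 between Nampt++ samples and controls and 0.03 between Nampt+ samples and controls, and over all genes tested it was 0.00 in each.

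On the inhibitory side, 0 of 9 genes tested were called in any comparison, and 0 had a p under 0.05 with edgeR, DESeq2 or limma. Few genes were called at all, with shares of 0.642%, 0.686% and 0.497% over all genes tested in the same order of comparisons. Inpp5d, the phosphatase that Fcgr2b recruits, had means of 52.1 ± 28.03 FPKM (SD, n = 3) in controls, 59.0 ± 28.4 (SD, n = 4) at Nampt++ and 56.8 ± 15.9 (SD, n = 4) at Nampt+ status. Ptpn6, the phosphatase SHP-1, stood at 109, 49.7 and 57.6 FPKM in controls, at 179, 48.4, 50.8 and 47.1 FPKM in Nampt++ samples and at 67.7, 57.6, 60.4 and 122 FPKM in Nampt+ samples. A single sample of each group was high while the rest lay close together. The medians of the log2 difference over the 9 genes were 0.03, -0.05 and -0.03 in the same order of comparisons.

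The table assigns 86 genes to the KEGG pathway of Fc gamma receptor-mediated phagocytosis. Of 76 tested between Nampt+ and Nampt++ samples, Syk was called lower and 0 were called higher. Of 77 tested between Nampt++ samples and controls, Pld1, phospholipase D1, was called higher at 1.53 against 0.762 FPKM (ratio 2.01, adjusted p = 1.00 in edgeR), just past the threshold of 2. It was no longer called without control 3, without rat 1 or rat 4, without haemoglobin genes, with limma or with the fold from the fitted difference (log2 0.90). Pld1 passed the filter of a mean of at least 1 FPKM only through the Nampt++ samples, where it was higher. Of 76 tested between Nampt+ samples and controls, Syk was called lower. Over all genes tested, 0.642%, 0.686% and 0.497% were called in these comparisons, in the same order.

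Of 14 other Fc receptors and partners, 10, 9 and 10 were tested in the 3 comparisons. Ms4a2, the beta chain of the high-affinity IgE receptor of mast cells and basophils, was called higher in Nampt+ than in Nampt++ samples (log2 difference 1.94 ± 0.61 SE, adjusted p = 1.00 in edgeR). It stood at 0.664, 0.258, 0.910 and 0.427 FPKM at Nampt++ and at 1.17, 0.421, 2.64 and 5.12 FPKM at Nampt+ status, higher in 4 of 4 rats though the groups overlapped. Its means were 0.565 FPKM at Nampt++ and 2.34 FPKM at Nampt+ status. Ms4a2 thus passed the filter of a mean of at least 1 FPKM only through the Nampt+ samples. The markers of basophils and mast cells, a list that holds Ms4a2, summed to 9.38 to 20.3 FPKM at Nampt++ and 11.6 to 72.8 FPKM at Nampt+ status (6 of 7 found), and their part in the difference was not tested. Pigr, the polymeric immunoglobulin receptor, and Fcrl1, an Fc receptor-like protein of B cells, had an edgeR p under 0.05 in that comparison without reaching the fold threshold, at 1.51 and 1.42 times the mean of Nampt++ samples. Over all genes tested there, 256 of 11219 had an edgeR p under 0.05 and 0.642% were called. In the comparisons with controls 0 of the list were called with edgeR, DESeq2 or limma, and Pigr had an edgeR p under 0.05 at Nampt++ status, at 0.639 times the mean of controls. Of all genes tested, 176 of 11219 had an edgeR p under 0.05 at Nampt++ status against controls, and 98 of 11269 at Nampt+ status. The shares called were 0.686% and 0.497% in the same order.

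A heavy chain gene of IgG, the ligand of the receptors, differed from controls by the thresholds for a call. Of 5 IgG heavy chain constant genes looked up, Ighg1 (ENSRNOG00000030332) was found. It stood at 6.83, 3.02 and 5.73 FPKM in controls, at 16.1, 21.95, 14.9 and 25.7 FPKM in Nampt++ samples and at 30.1, 15.4, 12.7 and 10.4 FPKM in Nampt+ samples. The 8 samples of CIA rats, which are 4 rats sampled at both statuses, were above the 3 controls. The mean was 3.78 times that of controls at Nampt++ status (log2 difference 1.92 ± 0.31 SE, adjusted p = 1.00 in edgeR) and 3.30 times at Nampt+ status (1.87 ± 0.49 SE, adjusted p = 1.00). It was called with DESeq2 and limma as well, and the 2 comparisons share their controls. Over all genes tested, 0.686% were called at Nampt++ and 0.497% at Nampt+ status against controls. The groups did not overlap in FPKM for 1.1% and 0.444% of genes in the same order. Between the statuses the ratio of Ighg1 was 0.872 and it was not called. The summed B cell markers overlapped between the groups, with 146 to 696 FPKM in controls, 227 to 306 at Nampt++ and 165 to 347 at Nampt+ status.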

How the data were processed

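Peripheral WBC RNA of 4 CIA rats, at both Nampt statuses, and of 3 normal healthy rats had been sequenced by the authors in pairs of reads, after lysis of red cells, TRIzol extraction and poly(A) selection, from libraries with U-labelled second strands. The submitters' processing notes name cutadapt 1.9, HISAT2 2.0.4 and StringTie 1.3.4. The genome build and the read counter are not given in the sources used here. Deposited counts are whole reads per gene that had not been normalized. FPKM was taken as deposited; the authors scale it by gene length and by the sample's total, to which haemoglobin contributes. An FPKM of 0.0001 stands for 0 and was read as 0.

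Genes with a mean of at least 1 FPKM over the samples compared were tested with edgeR 4.0.16 (quasi-likelihood, TMM), only the 2 groups entering each fit. Adjusted p values are Benjamini-Hochberg over all genes tested. Intervals at 95% come from limma 3.58.1 on log2(FPKM + 1), and DESeq2 1.42.0 was an alternative. Ratios of receptors were compared by 2-sided exact permutation. The code was tested on simulated data. Members, lists and tests were chosen with earlier results of these data known. Genes named were the members, called genes of the lists, Fcer1g, Syk, Inpp5d, Ptpn6, Lyn, B2m, Nampt, up to 4 abundant genes per list and the 3 genes most like each member. Pigr and Fcrl1, outside this rule, were named after their values were seen. Markers not found by symbol were not analysed here.

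Nampt++ and Nampt+ samples of the same number are the same rat by the labels and methods. Their deviations from the mean of their group correlated, across genes, at -0.28 in rat 1, -0.23 in rat 2, 0.25 in rat 3 and 0.07 in rat 4. For Nampt+ and Nampt++ samples of different number these correlations ran from -0.42 to 0.64. The highest joined the Nampt+ sample of rat 1 to the Nampt++ sample of rat 2. The reverse pair, Nampt+ of rat 2 with Nampt++ of rat 1, was at 0.27. The pairing was taken from the labels, and the within-rat results rest on it. Controls share only numbers with the rats. No 2 samples of a group were alike within counting error (chi-square per degree of freedom at least 287), and correlations in a group were 0.961 to 0.988.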

Additional observations from a re-analysis of the deposited data

Results flagged for a closer look

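Of 46 sets of 4 samples examined (genes and ratios at each status), 2 held a sample far from the others, and chance gives about 1 in 20. Both concern Ptpn6, the phosphatase SHP-1. In the Nampt++ samples rat 1 stood at 179 FPKM against 47.1 to 50.8 FPKM in the other rats. In the Nampt+ samples rat 4 stood at 122 FPKM against 57.6 to 67.7 FPKM in the other rats.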

How the results depend on the processing

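Each group held 3 or 4 animals, and the part of depth in the precision was not tested. The count of called members stayed at 0 in the 3 comparisons with DESeq2, RLE size factors, no FPKM filter, a mean of at least 10 FPKM, no haemoglobin genes, all groups in one fit, limma, the replicate block and the fold from the fitted difference. It moved in 1 case, from 0 to 1 (0 to 1 over the samples left out) in Nampt++ samples against controls without control 2, which is Fcgr2b. The calls of Syk and Ighg1 held under these alternatives and with each sample left out, and so did that of Ms4a2 between statuses wherever it passed the FPKM filter, which it did not at a mean of at least 10 FPKM or without the Nampt+ sample of rat 4. The cause of the changes below was not tested.

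Genes called numbered 295, 306 and 261 with no FPKM filter, and 19, 25 and 14 at a mean of at least 10 FPKM, for Nampt+ against Nampt++, Nampt++ against controls and Nampt+ against controls; these filters change how many genes are tested. For Nampt++ against controls they numbered 121 with DESeq2 and 145 and 140 with limma at a pseudocount of 1 and 0.1. With 1 sample left out they ranged from 58 to 165, from 53 to 462 and from 49 to 136. Counts over 1.5 times the full ones came without rat 2 at either status (163 and 165), without control 2 (462), control 3 (142) or rat 2 (184), and without control 2 (136), control 3 (112) or rat 1 (98), in the same order of comparisons.

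With the rat as a replicate block, Nampt+ against Nampt++ gave 56 called genes in place of 72 and changed no call of a member, Syk or Ms4a2. The number as a block, which pairs nothing in the comparisons with controls, gave 46 called genes for Nampt++ samples and 60 for Nampt+ samples, with Fcgr3a at -0.39 and Fcgrt at 0.14 (log2 difference, Nampt++ against controls).

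Differences near 0 turned in sign. For Nampt++ against controls Fcgr3a was at -0.059 (mean of at least 10 FPKM), -0.20 and -0.25 (limma, pseudocounts 1 and 0.1), and Fcgrt at 0.015 (limma, 0.1). For Nampt+ against controls Fcgr3a was at -0.086 and -0.12 (limma). Fcgr1a to LOC498276 in place of Fcgr2b, a ratio chosen after seeing the data, differed by 0.017 between statuses.

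With 1 sample left out, log2 differences of Nampt+ against Nampt++ ranged from -0.79 to 0.15 for Fcgr1a, -0.52 to 0.028 for Fcgr2b, -0.49 to 0.35 for Fcgr3a, -0.030 to 0.32 for Fcgrt, -0.76 to 0.047 for LOC498276, -0.53 to 0.14 for Fcer1g and -0.32 to 0.18 for Ighg1. Against controls, those of Nampt++ samples ranged from -0.29 to 0.48 for Fcgr3a, -0.41 to 0.11 for Fcgrt and -0.30 to 0.47 for Syk. Those of Nampt+ samples ranged from -0.29 to 1.03 for Fcgr1a, -0.51 to 0.51 for Fcgr3a, -0.29 to 0.23 for Fcgrt, -0.26 to 1.29 for LOC498276 and -0.019 to 0.91 for Fcer1g. The log2 ratio of Fcgr1a to Fcgr2b ranged from -0.12 to 0.10 between statuses, -0.33 to 0.13 for Nampt++ and -0.37 to 0.093 for Nampt+ samples against controls. That of Fcgr3a to Fcgr2b ranged from -0.41 to 1.12 between statuses and from -1.16 to 0.11 for Nampt+ samples against controls.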
